A study of Mus musculus with 10 samples.

Results

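The clustered protocadherins were followed in mouse embryonic stem cells (mESCs) that had lost a subunit of the mitotic deacetylase complex MiDAC. Rows were chosen by gene name alone, as those named *Pcdha*, *Pcdhb* or *Pcdhg* with an isoform number or letter, and 25 of the 34591 gene rows met this rule. Of these, 2 lie in the alpha cluster, 22 in the beta cluster and 1 in the gamma cluster. The gamma row was expressed at a low but well-counted level in every library and was somewhat higher in 3 of the 4 knockout clones than in WT. The alpha row and most beta rows were close to silent, and the few fragments of the alpha row were fewer in all 4 clones than in WT.

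The study compared WT mESCs with *Dnttip1* KO and *Elmsan1* KO mESCs. *Dnttip1* and *Elmsan1* encode subunits of MiDAC, which also holds the histone deacetylase HDAC1. The parental cells were the male C57/BL6 line Bruce-4. They were edited with CRISPR/Cas9 in serum and LIF, sorted as single cells and grown as clones, and WT and KO cells alike were then kept in naive 2iL medium. Clones D2A7 and D1E6 carried the *Dnttip1* KO, and clones E2E8 and E2G7 the *Elmsan1* KO. Each is 1 clone, so clone and knockout can be told apart only through the pair of clones that share a knockout. The sample labels and the series' design text number the *Dnttip1* KO clones in opposite order, and the clones are therefore given by their codes. Stranded total RNA of each line was sequenced in 2 libraries, 10 in all. The study calls the libraries of a line biological replicates, but the sources used here do not say whether they came from separate cultures, and p-values measure only the spread between these libraries.

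Clustered protocadherins are cadherin-related cell surface proteins. In neurons each cell expresses its own combination of isoforms, and their matching between membranes lets a neuron tell its own branches from those of others. In the alpha and gamma clusters a series of variable first exons, each with its own promoter, is spliced to constant exons shared by the whole cluster, whereas beta genes consist of a variable exon only. Promoter choice depends on CTCF and cohesin and on DNA methylation of the promoters, and the clusters are held silent in many other cells by DNA methylation, SMCHD1 and SETDB1. The C-type isoforms at the far end of the alpha and gamma clusters are expressed more uniformly among neurons than the other isoforms.

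All 25 members lie on the + strand of mouse chromosome 18 in NCBIM37, over 911.6 kb in the order alpha, beta, gamma. The row named *Pcdha4* (ENSMUSG00000007440) spans 37089939 to 37347311 and the row named *Pcdhga9* (ENSMUSG00000023036) spans 37833989 to 38001527. In GENCODE vM1 these identifiers are called *Pcdha11* and *Pcdhgc5*, and each holds 10 transcripts with starts spread along the cluster. In each row 9 of the 10 have 4 exons and end within the last part of the row, and the remaining transcript has fewer exons and ends before them. With the exon lengths of this annotation, the values of both rows were whole fragment numbers within 0.01 in all 10 libraries. RefSeq (assembly GRCm38.p6) lists 58 clustered protocadherin symbols, 14 alpha, 22 beta and 22 gamma. The table thus gave the alpha cluster, apart from the short *Pcdha3* row, as 1 gene and the gamma cluster as 1 gene. The C-type isoforms *Pcdhac1*, *Pcdhac2*, *Pcdhgc3*, *Pcdhgc4* and *Pcdhgc5* have no row of their own. The 10 transcripts of each row are fewer than the 14 alpha and 22 gamma symbols. Isoforms without a transcript there had no first exon counted in the row, so neither row need hold its whole cluster. Which isoform was transcribed cannot be read from these rows. The beta genes are separate rows, 21 of the 22 have an unspliced transcript, and *Pcdhb20* is annotated as a pseudogene.

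Row length bears on the levels. FPKM counts fragments relative to exon length and to library size. The exons of the alpha row add up to 24688 bases, of which 4351 are in more than 1 transcript, and those of the gamma row add up to 28980 bases, of which 4600 are shared. The transcripts of the gamma row are 4684 to 5777 bases long and those of the alpha row 1509 to 5422 bases. The FPKM of these rows is therefore spread over many first exons that a given transcript does not contain, and it understates the level of any isoform that makes up the signal. Beta rows are 2350 to 7131 bases long. In the beta genes with a transcript sequence, at most 2.54% of 100-base windows also occurred in a transcript of another gene.

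Over all genes, FPKM multiplied by exon length fell on whole multiples of a step, within 0.01, for 98.1% to 98.3% of the values under 100 steps in a library. This step gave library totals of 31098269 and 37921195 fragments for WT, 48262654 to 62336055 for *Dnttip1* KO and 67143664 to 86463773 for *Elmsan1* KO. WT was thus the least deeply sequenced group, and depth and genotype cannot be told apart in these libraries. The targeted gene *Dnttip1* stood at 8.15 and 8.43 FPKM in WT, 4.57 and 4.56 in D2A7 and 2.59 and 2.63 in D1E6, as the labels say. The *Elmsan1* transcript, listed as *C130039O16Rik*, stood at 5.53 and 5.39 FPKM in WT, 4.92 and 5.18 in E2E8 and 4.62 and 4.75 in E2G7. It was not called in *Elmsan1* KO (limma, log2 fold change -0.19, adjusted p = 0.188), so it gives no check of those labels. All 10 mESC markers were detected, with a summed level of 2933 to 3886 FPKM per library. Of the neuron markers *Dcx* was at most 0.000981 FPKM and *Rbfox3*, *Snap25*, *Syt1* and *Neurod1* at most 0.0816 FPKM, although *Tubb3* and *Stmn2* were above 44 FPKM in every library. Fibroblast markers summed to 0.131 to 0.588 FPKM and primitive endoderm markers to 0.608 to 1.38 FPKM.

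Nearly all counted protocadherin signal came from the gamma row. It held 39474 of the 40262 fragments of all members over the 10 libraries, or 98.0%. The alpha cluster held 265 and the beta cluster 523 of a total of 604917532 sequenced fragments. The mean level of the gamma row over all libraries, 2.20 FPKM, was above that of 69.6% of the gene rows in the table. In contrast, the median beta gene had a mean of 0.00472 FPKM, and 21 of the 25 members had fewer than 10 fragments in every library.

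The gamma row was at 1.85 FPKM in both WT libraries, with 1665 and 2036 fragments. It was at 1.87 and 1.94 FPKM in D2A7 and at 2.35 and 2.43 FPKM in D1E6. In the *Elmsan1* KO clones it was at 2.55 and 2.68 FPKM in E2E8 and at 2.26 and 2.25 FPKM in E2G7. All 8 knockout libraries lay above both WT libraries, but D2A7 was close to WT and the other clones stood clear of it. The spread within a line, at most 0.0969 FPKM (SD, n = 2), was smaller than the gap between WT and D1E6, E2E8 or E2G7.

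**Figure D1:**
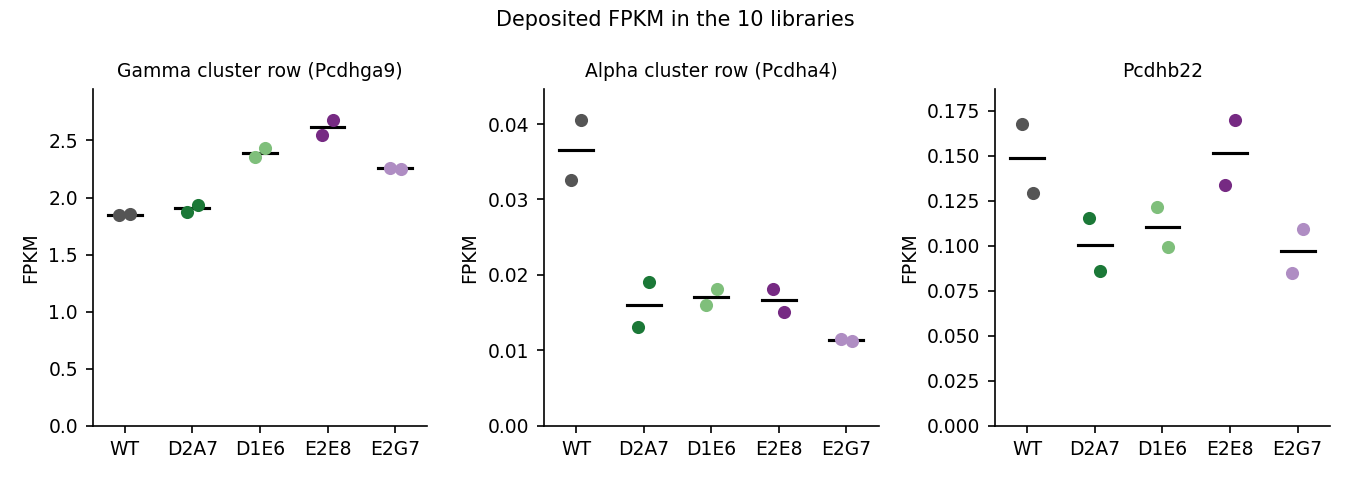
Deposited FPKM of the gamma row, the alpha row and *Pcdhb22* (y axes, each from 0) in WT and the 4 knockout clones (x axis); each point is a library and each bar the mean of 2. The gamma row is lowest in WT and D2A7, the alpha row is highest in the WT libraries (0.0326 and 0.0406 FPKM), and *Pcdhb22* overlaps with WT in E2E8 alone.

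Tests used limma on log2(FPKM + 0.1), and a gene was called lower or higher where it changed 1.5-fold or more with a p-value, before adjustment, below 0.01. To be tested it needed 0.1 FPKM in 2 libraries, and 2 of the 25 members passed that filter, the gamma row and *Pcdhb22*. Neither was called in any comparison. Knockout tests, here and below, took libraries of a clone as independent unless a correlation is named, so their p-values may be too small. Before adjustment, the p-value in limma was below 0.05 for the gamma row in 6 of the 9 comparisons (*Elmsan1* KO, D1E6, E2E8, E2G7 and both pairs of clones) and for *Pcdhb22* in none. The gamma row differed from WT by a log2 value of 0.17 in *Dnttip1* KO (95% interval -0.16 to 0.51, adjusted p = 0.467) and 0.35 in *Elmsan1* KO (0.08 to 0.63, adjusted p = 0.103). Over all genes tested, 3.25% were called lower and 3.26% higher in *Dnttip1* KO, and 3.68% lower and 2.74% higher in *Elmsan1* KO. No difference between the knockouts passed the test in the gamma row, with a log2 value of -0.18 between *Dnttip1* KO and *Elmsan1* KO (-0.45 to 0.09, adjusted p = 0.435). In that comparison 0.415% of all genes were called lower and 1.11% higher.

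Taken clone by clone, with all 10 libraries sharing an estimate of the spread, the gamma row rose by less than 1.5-fold in 3 clones. Its log2 fold change against WT was 0.45 in E2E8 (SE 0.0573, adjusted p = 0.000429). In D1E6 it was 0.32 (adjusted p = 0.00315) and in E2G7 it was 0.26 (adjusted p = 0.00952). In D2A7 it was 0.02, with an interval from -0.11 to 0.15 (adjusted p = 0.805), so any change there was small. All of these fell under the fold change needed for a call. Among all genes, the share called lower and higher against WT was 5.49% and 10.8% in D2A7, 5.94% and 5.04% in D1E6, 5.93% and 10.2% in E2E8, and 6.4% and 3.55% in E2G7.

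Clones of the same knockout differed in the gamma row. D2A7 stood below D1E6 by a log2 difference of -0.30 (SE 0.0573, adjusted p = 0.0038), and E2E8 stood above E2G7 by 0.19 (adjusted p = 0.0262). The difference between the *Dnttip1* KO clones was thus about as large as the rise of D1E6 over WT. In these comparisons 3.73% of all genes were called lower and 9.36% higher in D2A7 against D1E6, and 2.95% lower and 9.55% higher in E2E8 against E2G7.

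The alpha row was near the limit of detection. Its WT libraries held 25 and 38 fragments, or 80.4 and 100.0 per 100 M (100000000) sequenced fragments. D2A7 held 20 and 25 fragments, or 32.2 and 47.0 per 100 M. D1E6 held 19 and 28 fragments, or 39.4 and 44.9 per 100 M. E2E8 held 34 and 25 fragments, or 44.9 and 37.2 per 100 M, and E2G7 held 23 and 24, or 28.5 and 27.8 per 100 M. The 8 knockout libraries thus lay between 27.8 and 47.0 per 100 M, all below both WT libraries. Pooled per line, WT had 91.3 fragments per 100 M (exact Poisson 95% interval 70.1 to 117) and the clones 28.1 to 42.5, of which the highest upper bound was 56.5. These intervals cover counting error only. *Pcdha3*, the other alpha row, had 4 fragments in all libraries together and none in WT.

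The alpha row could not enter the test on FPKM, since none of its values reached 0.1. After its values were seen, the recovered fragments of all genes with at least 10 fragments in the compared libraries were therefore tested with voom and limma, as an addition to the planned tests. At the same call rule the alpha row was lower than WT in both knockouts, with a log2 fold change of -1.18 in *Dnttip1* KO (95% interval -1.80 to -0.57, adjusted p = 0.0459) and -1.44 in *Elmsan1* KO (-2.15 to -0.74, adjusted p = 0.0356). With an estimated correlation between libraries of a clone neither passed (adjusted p = 0.435 for *Dnttip1* KO and adjusted p = 0.393 for *Elmsan1* KO). Without WT replicate 2 both were also no longer called, at -1.05 (adjusted p = 0.343) and -1.31 (adjusted p = 0.333). Here 9 members were tested in *Dnttip1* KO and 11 in *Elmsan1* KO, and the alpha row was the only member called in either. Of all genes so tested, 3.48% were called lower and 2.17% higher in *Dnttip1* KO and 3.82% lower and 1.64% higher in *Elmsan1* KO. The 2 comparisons share the WT libraries.

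By clone the alpha row was called lower in all 4, again against the same 2 WT libraries. Its log2 fold change was -1.25 in D2A7 (adjusted p = 0.00324), -1.12 in D1E6 (adjusted p = 0.00848), -1.17 in E2E8 (adjusted p = 0.00297) and -1.70 in E2G7 (adjusted p = 0.000223). No difference between clones of a knockout passed the test in this row. D2A7 against D1E6 gave -0.13 (interval -0.83 to 0.58) and E2E8 against E2G7 gave 0.53 (-0.13 to 1.19), so differences of the size of the drop itself remain possible between the *Elmsan1* KO clones. With WT replicate 2 left out, the row was called in E2G7 but not in D2A7 (adjusted p = 0.0419), D1E6 (adjusted p = 0.0835) or E2E8 (adjusted p = 0.0453), where the p-values before adjustment were above 0.01. It was also not called in D2A7 without replicate 1 of that clone (adjusted p = 0.0544), nor in D1E6 without either replicate of that clone (adjusted p = 0.0476 and adjusted p = 0.0433). On the fragments, the share of all genes called lower and higher was 5.4% and 9.46% in D2A7, 6.17% and 4.22% in D1E6, 6.51% and 8.98% in E2E8, and 7.41% and 3.16% in E2G7. Of the 12 members tested there, E2G7 had 3 called lower, the alpha row, *Pcdhb14* and *Pcdhb18*, and the other clones had the alpha row only. In D2A7 *Pcdhb14* and *Pcdhb18* came close to a call, as given below.

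**Figure D2:**
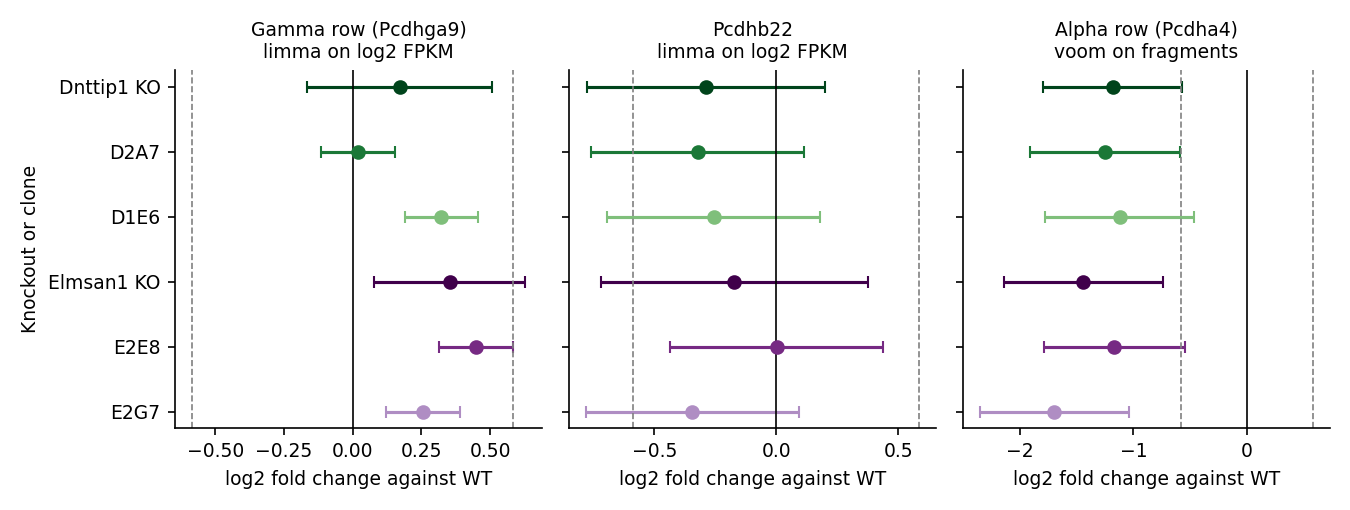
Log2 fold change against WT (x axes, which differ in range) with its 95% interval, for each knockout and clone (y axis), of the gamma row and *Pcdhb22* from limma on FPKM and of the alpha row from voom on fragments; dashed lines mark a fold change of 1.5. The gamma row lies between 0.02 and 0.45, the alpha row between -1.70 and -1.12.

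The beta genes were transcribed at traces, and 42.1% of their fragments came from *Pcdhb22*, the last beta gene before the gamma cluster. It had 16 and 15 fragments in WT (0.168 and 0.129 FPKM). The clones had 22 and 14 in D2A7 (0.115 and 0.0858 FPKM), 18 and 19 in D1E6 (0.122 and 0.0994 FPKM), 31 and 35 in E2E8 (0.133 and 0.170 FPKM), and 21 and 29 in E2G7 (0.0850 and 0.109 FPKM). E2E8 overlapped WT, whereas the other clones lay below it by less than the test could resolve. Against WT its log2 fold change was -0.29 in *Dnttip1* KO (interval -0.77 to 0.20, adjusted p = 0.403) and -0.17 in *Elmsan1* KO (-0.72 to 0.38, adjusted p = 0.664). These intervals leave room for changes past 1.5-fold downward. On fragments with voom the values were larger and were not called either, at -0.51 in *Dnttip1* KO (-1.24 to 0.23, adjusted p = 0.379) and -0.61 in E2G7 (-1.39 to 0.16, adjusted p = 0.221). By clone it lay between -0.34 in E2G7 (adjusted p = 0.192) and 0.00 in E2E8 (adjusted p = 1).

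*Pcdhb14* had 7 fragments in each WT library, which is 0.0655 and 0.0537 FPKM. It had 6 and 1 in D2A7, 4 and 9 in D1E6, 14 and 4 in E2E8 and 4 in each E2G7 library. *Pcdhb18* had 5 and 7 fragments in WT, 5 and 1 in D2A7, 3 and 5 in D1E6, 8 in each E2E8 library and 2 and 5 in E2G7. Both genes had their lowest pooled rates in E2G7, where voom gave log2 fold changes of -2.02 for *Pcdhb14* (adjusted p = 0.0291) and -2.08 for *Pcdhb18* (adjusted p = 0.0196). These calls rest on 8 and 7 fragments in E2G7 against 14 and 12 in WT. Their pooled rates were 4.79 per 100 M (2.07 to 9.44) against 20.3 (11.1 to 34.0) for *Pcdhb14*, and 4.19 (1.68 to 8.63) against 17.4 (8.98 to 30.4) for *Pcdhb18*. The drop is not shown to be particular to E2G7. In D2A7 voom gave -1.96 for *Pcdhb14* (adjusted p = 0.0426) and -1.89 for *Pcdhb18* (adjusted p = 0.0376). These were not called, since their p-values before adjustment were above 0.01. In D1E6 and E2E8 the values were smaller, from -1.25 to -0.69, and were not called.

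Of the other beta genes, *Pcdhb20* had 0 to 9 fragments and *Pcdhb12* 0 to 4 fragments per library. *Pcdhb20* reached 9 fragments in D1E6 replicate 2 but 2 in the other D1E6 library. Pooled per line, *Pcdhb20* had 4 fragments in WT, 3 in D2A7, 11 in D1E6, 4 in E2E8 and 5 in E2G7. *Pcdhb12* had 3, 5, 4, 5 and 2 in the same order. *Pcdhb10* had none in any library, which allows at most 0.00175 FPKM over all libraries together (3 fragments). Only 3 of the 22 beta genes, *Pcdhb14*, *Pcdhb18* and *Pcdhb22*, had a fragment in every library. The libraries detected 10 to 16 of the 22 beta genes each. The beta genes with more than 4 fragments in any library, *Pcdhb14*, *Pcdhb18*, *Pcdhb19*, *Pcdhb20*, *Pcdhb21* and *Pcdhb22*, all lay toward the gamma end of the cluster. A cut on fragments favours long rows, so this order is no result about level. *Pcdhb12*, further from that end, had a higher mean (0.0114 FPKM) than *Pcdhb19* (0.0076 FPKM) and *Pcdhb21* (0.0107 FPKM).

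Summed over the cluster, beta fragments per 100 M were 148 and 111 in WT, 88.5 and 69.6 in D2A7, 76.7 and 103 in D1E6, 93.7 and 110 in E2E8, and 57.1 and 59.0 in E2G7. E2G7 was lowest and WT highest, and E2E8 replicate 2 was close to WT replicate 2. The pooled rate was 128 in WT (102 to 157) and 58.1 in E2G7 (47.1 to 70.8). D2A7 (79.8, 64.3 to 97.8) also lay below the WT interval, whereas those of D1E6 (91.3, 74.4 to 111) and E2E8 (101, 85.6 to 119) overlapped it. Without *Pcdhb22* the pooled rate was 82.6 in WT (62.5 to 107) and 28.1 in E2G7 (20.7 to 37.4). D2A7 (48.6, 36.7 to 63.1), D1E6 (57.9, 44.6 to 73.9) and E2E8 (55.3, 43.8 to 68.9) then all overlapped the WT interval. The place of D2A7 and E2E8 beside WT thus depended on *Pcdhb22*. The intervals cover counting error only. Both sums were taken as a description with no test across libraries.

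**Figure D3:**
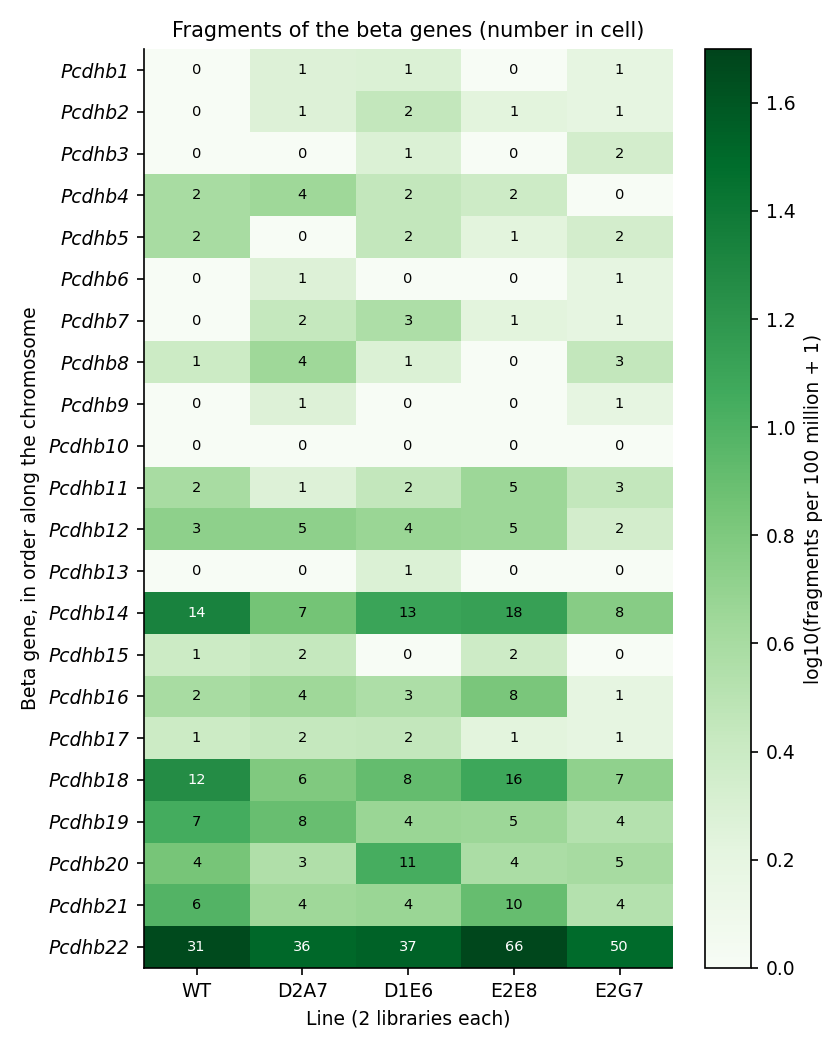
Fragments of the 22 beta genes in order along the chromosome (rows) in each line (columns, 2 libraries pooled); the number is the fragment count and the shade is log10 of fragments per 100 M plus 1. *Pcdhb22* is the darkest row in every line, with 31 fragments in WT and 66 in E2E8, and *Pcdhb10* is empty.

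The genes beside and between the clusters were listed to set beside the members. This list held 15 genes, among them *Taf7*, a general transcription factor subunit between the beta and gamma clusters, *Hdac3*, a class I deacetylase downstream of the gamma cluster, and *Hars*, a histidyl tRNA synthetase upstream of the alpha cluster. Of these, 14 were tested and none was called lower or higher in any of the 9 comparisons. With 3.25% of all genes called lower and 3.26% higher in *Dnttip1* KO, and like shares in *Elmsan1* KO, a count of 0 of 14 is near the share of all genes. Their log2 fold changes against WT in the clones ranged from -0.413 to 0.567, and the median of the tested genes was -0.01 in *Dnttip1* KO and -0.03 in *Elmsan1* KO. The tested genes of chromosome 18 had medians of -0.05 in both knockouts, beside 0.02 and 0.00 for all genes tested.

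Within the span of the clusters, 2 further transcripts were counted well enough to test. *3222401L13Rik*, just upstream of the gamma row, was at 1.69 and 2.07 FPKM in WT and 1.77 to 2.36 FPKM in the clones and was not called. *Gm16882*, a noncoding RNA antisense to the gamma row, was at 0.142 and 0.173 FPKM in WT and 0.274 and 0.394 FPKM in D2A7, and was called higher in that clone (log2 fold change 0.73, SE 0.174, adjusted p = 0.00987). In the other clones *Gm16882* was at 0.237 and 0.241 FPKM in D1E6 and 0.175 to 0.212 FPKM in E2E8 and E2G7. It was not called there, with 0.38 in D1E6 (limma, adjusted p = 0.121). D2A7 against D1E6 was not called either (0.35, adjusted p = 0.149), so the rise is not shown to be particular to D2A7. The gamma row of D2A7 stayed near WT, and a link between it and *Gm16882* was not tested. The kit keeps strand, but whether the counting used it is not given in the sources used here, so reads of *Gm16882* and the gamma row may not be fully separated.

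**Figure D4:**
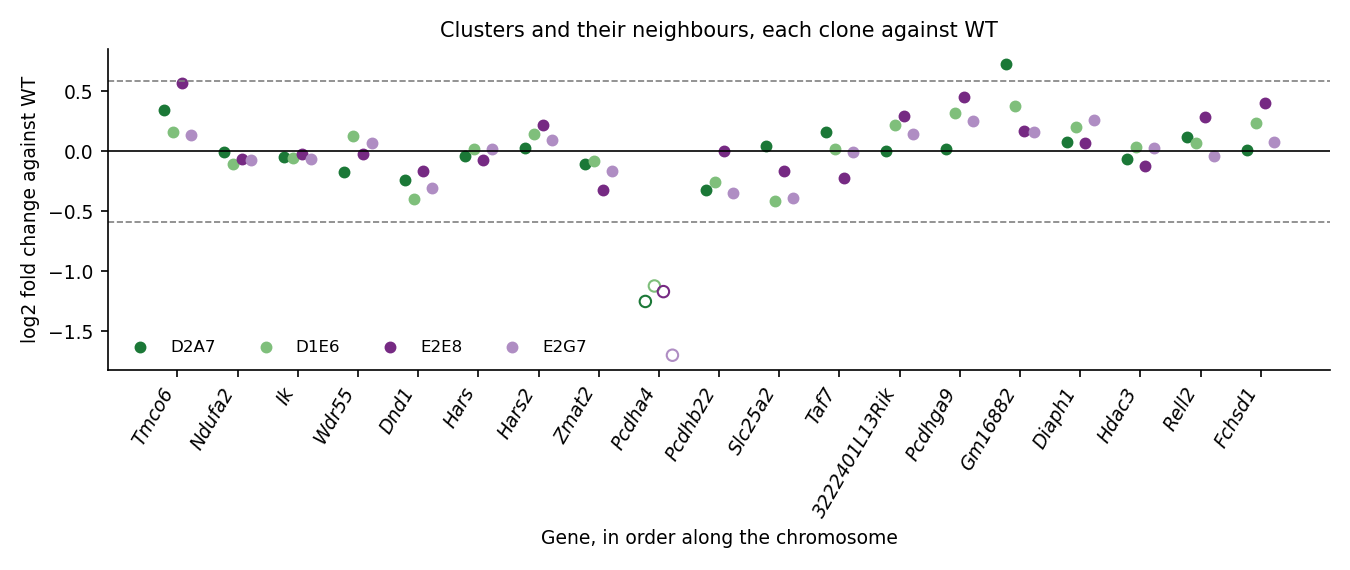
Log2 fold change against WT (y axis) of the tested genes beside, between and within the clusters in order along the chromosome (x axis), with a point per clone; open circles are voom on fragments (the alpha row, *Pcdha4*) and dashed lines a fold change of 1.5. The alpha row lies from -1.70 to -1.12, and *Gm16882* in D2A7 (0.73) is the other point outside the dashed lines.

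Of 25 chromatin regulators known to act on the clusters, only *Dnmt3b*, *Dnmt3l*, *Uhrf1*, *Tet1* and *Tet2* were called in any comparison. *Uhrf1* was called higher in D2A7 (limma, log2 fold change 0.62, adjusted p = 1.1e-05). *Ctcf*, whose protein binds protocadherin promoters and enhancers, was at 42.7 and 43.7 FPKM in WT and 43.8 to 57.6 FPKM in the clones. In limma the log2 fold change of *Ctcf* was 0.23 in *Dnttip1* KO (adjusted p = 0.0723) and 0.20 in *Elmsan1* KO (adjusted p = 0.363). By clone *Ctcf* was higher in D2A7 (0.17, adjusted p = 0.00776), D1E6 (0.29, adjusted p = 0.000675) and E2G7 (0.37, adjusted p = 0.000218), all under 1.5-fold. In E2E8 it gave 0.02 (adjusted p = 0.64). *Smchd1*, a silencer of the clusters, was at 21.3 and 23.4 FPKM in WT. It was lower in D2A7 (log2 fold change -0.27, adjusted p = 0.000429) and higher in D1E6 (0.15, adjusted p = 0.00924), E2E8 (0.26, adjusted p = 0.000428) and E2G7 (0.29, adjusted p = 0.000378), all under 1.5-fold. By knockout it gave -0.06 in *Dnttip1* KO (adjusted p = 0.839) and 0.28 in *Elmsan1* KO (adjusted p = 0.0197). *Setdb1*, a histone H3K9 methyltransferase, gave 0.06 in *Dnttip1* KO (adjusted p = 0.76) and -0.18 in *Elmsan1* KO (adjusted p = 0.374). By clone *Setdb1* was higher in D2A7 (0.19, adjusted p = 0.00137) and lower in E2E8 (-0.34, adjusted p = 8.13e-05), both under 1.5-fold. It gave -0.08 in D1E6 (adjusted p = 0.0745) and -0.02 in E2G7 (adjusted p = 0.645). *Wiz*, a zinc finger protein that partners H3K9 methyltransferases, gave 0.29 (adjusted p = 0.0979) and 0.07 (adjusted p = 0.687). 

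The DNA methylation genes differed between clones. *Dnmt3l*, the cofactor of the de novo DNA methyltransferases, was at 5.74 and 6.44 FPKM in WT. It was at 15.5 and 15.5 FPKM in D2A7, 29.4 and 28.7 in D1E6 and 16.1 and 15.4 in E2G7, but at 2.91 and 3.14 FPKM in E2E8. It was the only 1 of the 25 regulators called in *Dnttip1* KO (log2 fold change 1.76, adjusted p = 0.0265), and none was called in *Elmsan1* KO. *Dnmt3b*, a de novo DNA methyltransferase, was at 10.7 and 10.3 FPKM in WT and fell in E2E8 to 3.67 and 3.86 FPKM (-1.49, adjusted p = 7.16e-07). It was at 15.4 and 15.3 FPKM in D2A7, 10.8 and 11.1 in D1E6 and 13.5 and 13.6 in E2G7. *Tet2*, which oxidizes 5-methylcytosine, fell in E2E8 to 5.6 and 5.61 FPKM from 16.7 and 17.8 FPKM in WT (-1.63, adjusted p = 1.1e-07), and it fell less in E2G7 (-0.64, adjusted p = 7.28e-06). By clone, 2 regulators were called higher in D2A7, 1 higher in D1E6, 3 lower in E2E8, and 1 lower and 1 higher in E2G7. Of all genes, 10.8% were called higher in D2A7, 5.04% higher in D1E6, 5.93% lower in E2E8, and 6.4% lower and 3.55% higher in E2G7, so most of these counts are near the share of all genes and are no result about the list. E2E8, the clone with the lowest *Dnmt3b*, *Dnmt3l* and *Tet2*, was also the clone with the highest gamma row. For *Dnmt3l* the other lines did not keep this order. D1E6, with the highest *Dnmt3l*, had the next highest gamma row, and WT, with *Dnmt3l* at 5.74 and 6.44 FPKM, had the lowest. Whether these genes had a part in the protocadherin levels was not tested.

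**Figure D5:**
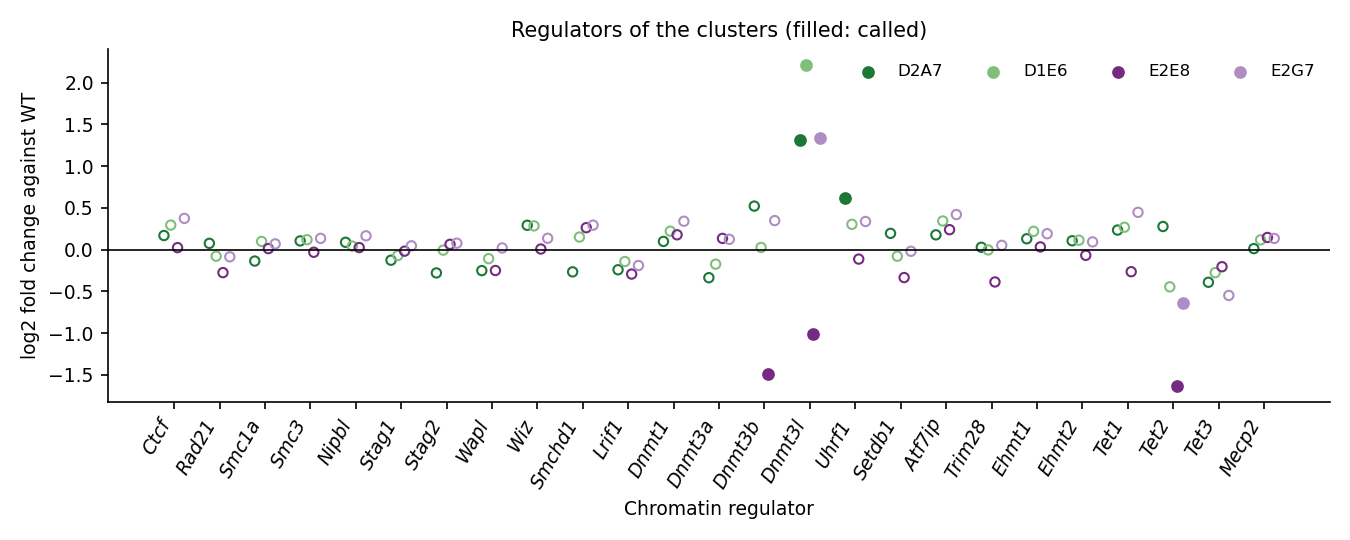
Log2 fold change against WT (y axis) of 25 chromatin regulators (x axis), with a point per clone, filled where called. *Dnmt3l* is called in all 4 clones, lower in E2E8 (-1.01) and higher in the others, and *Dnmt3b* is called in E2E8.

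Protocadherins outside the clusters were also weakly expressed. Of 12, *Pcdh19* passed the filter. This X-linked protocadherin, known for its role in neural adhesion, was at 0.228 and 0.254 FPKM in WT. It was at 0.743 and 0.690 FPKM in D2A7 and was called higher there (1.25, adjusted p = 0.000386). In E2E8 it was at 0.0744 and 0.0535 FPKM and was called lower (-1.07, adjusted p = 0.000754), while D1E6 and E2G7 lay between 0.151 and 0.206 FPKM. The other 11 were at most 0.0847 FPKM in any library. Of 8 genes for cytoplasmic partners of protocadherins, none was called in either knockout. Of all genes, 3.25% were called lower and 3.26% higher in *Dnttip1* KO, and 3.68% lower and 2.74% higher in *Elmsan1* KO. The count of 0 of 8 is near these shares and is no result about the partners. *Ptk2b*, a focal adhesion kinase family member, was called higher in D2A7 (0.74, adjusted p = 0.000228), and *Cyfip2*, a subunit of the WAVE regulatory complex, was at 2.88 and 3.06 FPKM in E2E8 and 1.60 to 1.97 FPKM in all other libraries.

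Some neural markers also differed between the groups. Of 8 neuron markers 3 were tested. *Stmn2* was at 91.1 and 86.8 FPKM in WT and 51.8 to 62.4 FPKM in the clones, and was called lower in *Dnttip1* KO (-0.68, adjusted p = 0.00838) and *Elmsan1* KO (-0.70, adjusted p = 0.00636). *Map2* was called lower in *Dnttip1* KO (-1.05, adjusted p = 0.00999). The summed neuron list was at 142 to 151 FPKM in WT and 97.5 to 150 FPKM in the clones. Of the neural progenitor markers, *Nes* was called higher in *Dnttip1* KO (1.30, adjusted p = 0.0179) and in *Elmsan1* KO (0.80, adjusted p = 0.0636), and *Olig2* was called lower in *Elmsan1* KO (-0.63, adjusted p = 0.0626). The neuron marker *Tubb3* went the other way in some clones and was called higher in D1E6 (0.59, adjusted p = 9.86e-05) and E2G7 (0.62, adjusted p = 8.48e-05), with 0.47 in *Dnttip1* KO (adjusted p = 0.0482, under 1.5-fold). Without a test, both WT libraries lay above all 8 knockout libraries for 5 of the 8 neuron markers (*Stmn2*, *Map2*, *Snap25*, *Syt1* and *Neurod1*) and below all of them for 1 (*Rbfox3*). Of these, *Snap25*, *Syt1*, *Neurod1* and *Rbfox3* were near the floor, at most 0.0816 FPKM. The order of *Neurod1* rests on 0.0589 FPKM in WT replicate 1 against 0.0588 FPKM in D1E6 replicate 2. The share of all genes with such an order was not counted, so it is no result about these markers. The part of these markers, some lower and some higher, in the result for the alpha row was not tested. In bulk libraries, fewer cells that express a gene and less RNA per cell cannot be told apart.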

How the data were processed

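FPKM per gene in 10 libraries were analysed. Per the study's methods, the authors mapped reads on NCBIM37, obtained gene counts from HTSeq, and tested counts with edgeR 3.16.5, limma and R 3.3.1; the deposited values are FPKM, not counts. The methods name GENCODE vM20, but GENCODE vM1, the annotation of this build used here for positions and exon lengths, held 97.2% of the gene identifiers. FPKM times exon length fell on whole multiples (within 0.01) of a step in 98.1% to 98.3% of values under 100 steps, which gave fragments and totals.

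FPKM were divided by a median-ratio factor over 11270 genes and tested with limma 3.58.1 (R 4.3.3) on log2(FPKM + 0.1), with a variance trend, for genes with 0.1 FPKM in 2 libraries. Fold changes on this scale understate those of low genes. Knockouts were compared within the libraries of the comparison, and clones in a fit of all 10. The knockout fits took libraries of a clone as independent. On FPKM, libraries of a clone correlated at an estimated 0.70 for *Dnttip1* KO against WT and 0.77 for *Elmsan1* KO against WT. Between the knockouts the estimate was 0.86. P-values were adjusted over all genes by the Benjamini-Hochberg method. A test on the fragments of genes with at least 10 (voom) was added after the values were seen. The scripts were tested on simulated data. Alternatives were the pseudocount, the filter, the scaling, a replicate block, a correlation within clones and each library left out.

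Members and gene lists were chosen with earlier results of these data known. Named genes were the C-type isoforms, the 5 highest members per cluster, members called, and listed genes called in a knockout or of long-standing interest (*Ctcf*, *Smchd1*, *Dnmt3b*, *Setdb1*, *Wiz*); other genes named were chosen after their values were seen. Sequences of the members are not shown here.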

Additional observations from a re-analysis of the deposited data

Results flagged for a closer look

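Clones of the same knockout differed in several genes by a direct test in limma. The gamma row was lower in D2A7 than in D1E6 (log2 difference -0.30) and higher in E2E8 than in E2G7 (0.19). Among the regulators, *Dnmt3l* was lower in D2A7 than in D1E6 (-0.89) and *Tet2* was higher (0.72). E2E8 was below E2G7 in *Dnmt3b* (-1.83), *Dnmt3l* (-2.36), *Tet1* (-0.71) and *Tet2* (-0.99). *Pcdh19* was higher in D2A7 than in D1E6 (1.57) and lower in E2E8 than in E2G7 (-0.71), and *Cyfip2* was higher in E2E8 than in E2G7 (0.83).

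Among 18 sets of 4 libraries checked for a library far from the others, 3 had one, where chance gives about 1 in 20. All 3 rest on a few fragments in *Elmsan1* KO. *Pcdhb14* was at 0.0537 FPKM and *Pcdhb12* at 0.0174 FPKM in E2E8 replicate 1. *Pcdha3* was at 0.00509 FPKM in E2G7 replicate 1, which is 1 fragment, and at 0 in the other *Elmsan1* KO libraries.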

How the results depend on the processing

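No clustered protocadherin was called with another pseudocount, filter or scaling listed in the methods, a replicate block, a correlation within clones or a library left out. Without a filter and with a pseudocount of 0.01, an alternative chosen after seeing the data, 1 member was called lower in each knockout and in D2A7, D1E6 and E2E8, 2 in E2G7, and 1 higher in *Dnttip1* KO. These were the alpha row throughout, *Pcdhb18* in E2G7 and, as the higher member, *Pcdhb7* with at most 2 fragments in a library. With voom on fragments, also added, 0 were called among the genes that pass the FPKM filter, and among genes with at least 10 fragments 1 was lower in each knockout, D2A7, D1E6 and E2E8 and 3 in E2G7. The cause was not tested. With a correlation within clones the alpha row gave -1.21 in *Dnttip1* KO and -1.46 in *Elmsan1* KO and was no longer called. With each library left out its log2 fold change ranged from -1.29 to -1.05 in *Dnttip1* KO, -1.58 to -1.31 in *Elmsan1* KO, -1.50 to -0.96 in D2A7, -1.23 to -0.99 in D1E6, -1.31 to -1.03 in E2E8, and -0.38 to 0.16 for D2A7 against D1E6. The gamma row in D2A7 ranged from -0.0099 to 0.0481 on FPKM and -0.0117 to 0.0496 on fragments. *Pcdhb22* in E2E8 ranged from -0.132 to 0.134, and gave -0.00018 with a pseudocount of 1, -0.0069 with voom and -0.0045 with voom on genes with at least 10 fragments. *Pcdhb22* in D2A7 against D1E6 ranged from -0.173 to 0.0414. The WT gamma level was 1.875 after division by the median-ratio factor. Deviations of same-numbered libraries correlated at -0.139 to 0.192 between lines, so no pairing common to all lines was seen. Whether some libraries shared a batch was not tested. With a replicate block the alpha row stayed called, at -1.17 (adjusted p = 0.1003) in *Dnttip1* KO and -1.44 (adjusted p = 0.1015) in *Elmsan1* KO, and 0 members were called on FPKM. Depth limits the alpha and beta rows, and 21 of the 25 members stayed under 10 fragments in every library.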
